A study of Mus musculus with 12 samples.

Results

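Interferon response genes are a set of 35 listed genes that cells switch on after interferon binds its receptor, or after sensors of foreign RNA or DNA are triggered. All 35 were found by symbol among the 43629 gene identifiers of the count files, and 33 had enough reads to be tested across the 12 libraries. Oas1a and Cxcl10 fell under the filter on low counts. The genes of the set were chosen with earlier results of these data known, and they are described here over every group of the series.

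The question of the series, by its title and design, is what the kinase gene Akt1 adds when fibroblasts are reprogrammed toward heart muscle with cardiac factors. Embryonic fibroblasts of C57BL/6 mice had received an empty vector (E), the genes Gata4, Hand2, Mef2c and Tbx5 (GHMT), or these with Akt (AGHMT, written AGMT in the treatment note of the labels) 3 weeks before. The fourth group (CM) was ventricular cardiomyocytes isolated from adult mice of the same strain, and each group had 3 libraries. A sort on a green fluorescent reporter, driven by the cardiac αMHC promoter, is named for GHMT and AGHMT and not for E or CM, so that the sort and the factors cannot be told apart in any comparison with E. No label says whether replicates were separate cultures or animals, so each p-value measures only the spread among these libraries, which may be technical.

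Akt1 was counted at 104, 64.1 and 21 CPM (read counts divided by library size, the latter adjusted with edgeR's TMM factors) in E and at 1.31, 13.5 and 13.7 CPM in GHMT. In the libraries labelled AGHMT it stood at 7.30, 12 and 19.6 CPM, below every E library, and the difference from GHMT did not pass edgeR's quasi-likelihood test (log2 difference 0.34, adjusted p = 0.786). The Akt1 counts do not bear the label out, and they do not check it if the forced gene is not the mouse sequence that was counted, which the labels leave unsaid. AGHMT below means the libraries labelled so. Depth was lowest in GHMT, with 1872558 to 2200815 reads in genes. AGHMT had 14386407 to 18493989, CM had 5120230 to 15952646 and E had 15971154 to 33552138. In GHMT 1 a single mitochondrial gene, mt-Nd6, took 43.1% of gene reads, and 612458 reads lay outside the mitochondrial genome. A single read is worth 1.31 CPM in GHMT 1 and 0.0167 CPM in E 1, so low values in GHMT are coarse.

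In a cell, double-stranded or unusual RNA is met by sensors such as RIG-I (Ddx58), MDA5 (Ifih1) and Tlr3, which lead to secretion of type I interferon. Interferon acts through receptor-bound kinases on Stat2, which joins Irf9 in a complex that binds the interferon-stimulated response element in promoters of the induced genes. Several of the sensors and signalling factors are themselves induced, and fibroblasts are a classic cell in which the response was worked out. Many of the induced proteins block translation, replication or release of viruses, and the interferon-inducible GTPases act on intracellular pathogens.

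That response element is a promoter feature shared by many genes of the set, and it is shown for 5 of them that moved in different ways. Promoter windows of 250 bases before to 50 bases after the start, from RefSeq (GRCm38.p6), were matched by symbol for 27 of the 35 genes, and none was matched for Mx1, Mx2, Dhx58, Usp18, Zbp1, Parp9, Parp14 and Rtp4. Capitals mark each match to the core of the element, GAAA followed by any 2 bases and GAAA again, read on both strands with overlaps allowed, so that a match on the opposite strand of the gene appears as TTTC repeats. All are written 5′ to 3′ on the strand of the gene.
Ifit1 (chr19:34640770-34640828, plus strand): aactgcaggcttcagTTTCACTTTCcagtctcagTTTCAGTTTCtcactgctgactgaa
Ifit3 (chr19:34583358-34583431, plus strand): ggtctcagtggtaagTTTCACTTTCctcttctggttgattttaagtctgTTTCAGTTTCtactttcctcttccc
Rsad2 (chr12:26456548-26456587, minus strand): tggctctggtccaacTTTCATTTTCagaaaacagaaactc
Isg15 (chr4:156200860-156200911, minus strand): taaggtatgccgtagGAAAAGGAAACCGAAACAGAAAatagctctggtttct
Gbp2 (chr3:142620589-142620628, plus strand): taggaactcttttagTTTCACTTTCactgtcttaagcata
The motif was in the window of 15 of the 27 genes (55.6%), against 1079 of 27025 genes in the whole table (3.99%). Ifit1 and Ifit3 each carried 2 matches, Rsad2 and Gbp2 carried 1, and Isg15 carried 3 that overlap. A match is a description of these letters, not evidence of a bound site.

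Against E, GHMT libraries held more RNA of most of the set. Of the 33 genes tested, 19 were higher, 4 were lower and 10 did not pass (edgeR's quasi-likelihood test, Benjamini-Hochberg adjusted p under 0.05), while 52.6% of all 15059 genes tested were called, 19.8% higher and 32.9% lower. All 3 GHMT libraries lay above all 3 of E for 15 and below for 6, beside 15.5% and 43.9% of all genes. The median log2 difference was 1.98 over the set and -1.06 over all genes, and 2.06 over the set with 2 genes without reads at their bounds and Mx1 left out. In AGHMT against E, 20 were higher, 1 was lower and 12 did not pass, beside 46.5% of all genes called, 21.9% higher and 24.6% lower, with a median of 2.12 against -0.16. Groups were apart for 24 genes above and 1 below E, beside 34.8% and 36.9% of all genes. In CM against E, 21 were higher, 1 was lower and 11 did not pass, beside 42.0% of all genes called, 19.5% higher and 22.5% lower, with a median of 1.70 against -0.26. Groups were apart for 23 above and 2 below E, beside 24.6% and 32.6%. These 3 comparisons share the E libraries, so their counts are not independent of each other.

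Scaling bears on these counts. With total counts as library sizes, 12 genes of the set were higher in GHMT, 12 in AGHMT and 9 in CM, and the share of calls that were higher among all genes fell from 37.6% to 12%, from 47.0% to 23.3% and from 46.4% to 22.7%. With DESeq2's size factors that share was 58.3% in CM against E. Without GHMT 1 and CM 3, which differed most from the other libraries of their groups, 23 genes of the set were higher in GHMT against E and 3 lower.

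**Figure D1:**
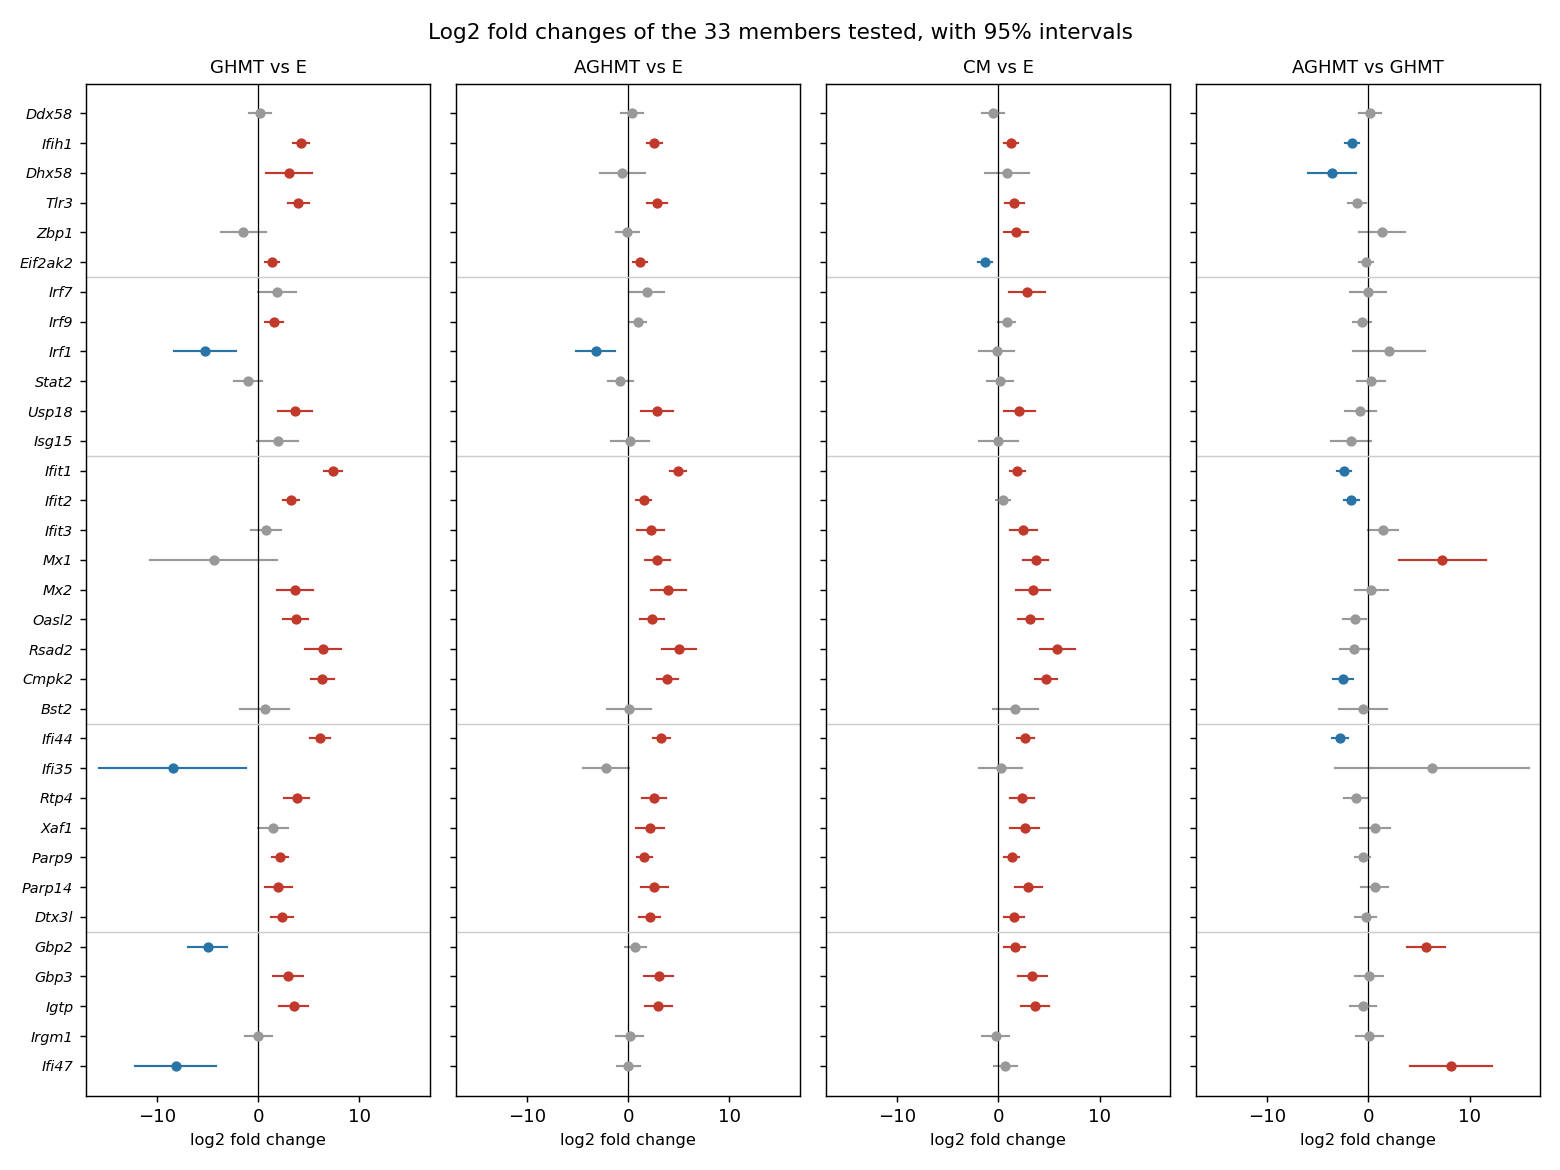
Log2 fold changes (horizontal axis) of the 33 tested genes in 4 comparisons, with 95% intervals, ordered by role from sensors at the top to GTPases at the bottom; red is higher, blue lower and grey not called at an adjusted p of 0.05. Fitted changes of Mx1, Ifi35 and Ifi47 against GHMT, where no GHMT library had a read, depend on edgeR's default prior count and are not bounds. Most red points lie between 1 and 7.38.

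Summed over all 35 genes, the level was 279, 281 and 310 CPM in E, 1950, 1730 and 2090 CPM in GHMT, 812, 850 and 884 CPM in AGHMT and 585, 639 and 430 CPM in CM. On these TMM-scaled values the groups did not overlap, with GHMT highest and E lowest. The TMM factors were 0.347, 0.903 and 0.777 in GHMT and 1.79, 1.85 and 1.74 in E. They were 0.905, 1.12 and 0.992 in AGHMT and 0.844, 0.732 and 1.14 in CM. The separation and order of the groups therefore depend on the scaling. Ifit1 alone made up 42.8%, 38.6% and 28.3% of the sum in the GHMT libraries and at most 1.63% in those of E. Because these are bulk samples, more cells with the RNA and more RNA per cell cannot be told apart.

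Among the 6 sensors, Ifih1, Tlr3, Eif2ak2 and Dhx58 were called higher in GHMT than in E, and none was lower, beside 19.8% and 32.9% of all genes. Ifih1 (chromosome 2, 62595798 to 62646255, minus strand) encodes MDA5, which binds long double-stranded RNA in the cytoplasm. It stood at 5.02, 6.49 and 7.43 CPM in E, at 131, 102 and 126 CPM in GHMT, at 40.7, 35.2 and 38.9 CPM in AGHMT and at 14.2, 19.5 and 10.8 CPM in CM. The 4 groups did not overlap, in the order GHMT, AGHMT, CM, E. The log2 difference from E was 4.24 ± 0.37 (SE, adjusted p = 8.65e-07, edgeR's quasi-likelihood test) in GHMT, 2.60 ± 0.34 (4.53e-05) in AGHMT and 1.24 ± 0.33 (0.00697) in CM, the last lost with total counts, with no filter and without E 1. AGHMT was lower than GHMT (log2 -1.64 ± 0.33, adjusted p = 0.00542), a call lost with total counts and without AGHMT 3.

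Tlr3 (chromosome 8, 45395665 to 45411080, minus strand) encodes the endosomal receptor for double-stranded RNA. Its libraries held 3.90, 5.85 and 7.43 CPM in E, 80.0, 52.6 and 138 CPM in GHMT, 41.8, 40.0 and 41.0 CPM in AGHMT and 18.8, 23 and 9.62 CPM in CM. Every GHMT library lay above every AGHMT library, yet GHMT varied more than 2-fold within itself, and AGHMT against GHMT did not pass edgeR's test (log2 -1.14, adjusted p = 0.0778). Against E the gene was higher in GHMT (3.98 ± 0.48, adjusted p = 1.94e-05), AGHMT (2.84 ± 0.45, 0.000248) and CM (1.59 ± 0.43, 0.00825), and the CM call was lost with total counts and without E 1.

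Eif2ak2 (chromosome 17, 78852564 to 78882573, minus strand) encodes PKR, the kinase that shuts down translation on meeting double-stranded RNA. It was the most abundant sensor per kilobase of exon in every group. Values were 63.5, 79.6 and 102 CPM in E, 181, 193 and 267 CPM in GHMT, 188, 172 and 191 CPM in AGHMT and 35.1, 45.3 and 19.4 CPM in CM. GHMT and AGHMT overlapped, both lay above E, and CM lay below E. The changes were 1.39 ± 0.33 (adjusted p = 0.00323) in GHMT, 1.17 ± 0.33 (0.01) in AGHMT and -1.29 ± 0.33 (0.00535) in CM, by edgeR's quasi-likelihood test. Eif2ak2 was the gene of the set called lower in CM than in E. With total counts the GHMT difference was 0.02, and that call was also lost with normalization without mitochondrially encoded genes, with a correction of each library for GC content and without AGHMT 3 or E 1. The AGHMT call was lost with total counts, with the GC correction and without E 1.

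The other sensors did not share this pattern. Ddx58, which encodes RIG-I, stood at 5.24, 45.9 and 54.3 CPM in GHMT and at 29.8 to 34.6 CPM in E, and it passed in no comparison. Dhx58, the regulator LGP2, had 33 reads in GHMT, all in GHMT 2 (17.2 CPM, and 0 in the other libraries). Its call in GHMT against E (3.04 ± 1.07, adjusted p = 0.0275, edgeR) rests on that library, and without GHMT 2 the difference was -6.82. It was also lost in several alternatives, among them DESeq2's size factors, total counts and the omission of AGHMT 3 or any E library. Zbp1, a sensor of Z-form nucleic acid, had 1 read in GHMT and was higher in CM than in E (1.74, adjusted p = 0.0177), a call lost with total counts, with no filter, with the replicate block and without CM 1 or any of the E libraries.

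Among signalling factors and regulators the changes were fewer: 2 of 6 were higher and 1 was lower in GHMT against E, beside 19.8% and 32.9% of all genes. Irf9, the DNA-binding partner of Stat2, stood at 13.2, 9.43 and 10.4 CPM in E, 26.2, 44.8 and 25.4 CPM in GHMT, 18.5, 19.7 and 24.8 CPM in AGHMT and 15.5, 21.9 and 20.8 CPM in CM. Each E library lay below every library of the other groups. The GHMT difference passed (1.56 ± 0.40, adjusted p = 0.00539, edgeR's quasi-likelihood test), and those of AGHMT (0.93, 0.0607) and CM (0.82, 0.106) did not. With total counts the GHMT value was 0.23, and the call was also lost in the fit of the pair alone and without AGHMT 3 or E 1.

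Stat2 was called in no comparison. It held 24.5, 17.2 and 9.60 CPM in E, 1.31, 4.69 and 18.6 CPM in GHMT, 7.22, 11.8 and 11.2 CPM in AGHMT and 21.5, 15.6 and 19.6 CPM in CM, and GHMT overlapped with all other groups. Irf7, the factor that amplifies interferon production, stood at 1.67, 0.980 and 1.59 CPM in E, 0, 1.04 and 13.7 CPM in GHMT, 4.46, 5.84 and 4.85 CPM in AGHMT and 8.40, 7.65 and 14.6 CPM in CM. Only CM against E passed for Irf7 (2.84 ± 0.82, adjusted p = 0.0118, edgeR), a call lost with total counts, with limma and without E 2. In GHMT, replicate 3 carried most of its signal. The AGHMT libraries of Irf7 all lay above E, but the test gave an adjusted p of 0.0714.

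Irf1, a factor best known from the interferon gamma response, went the other way. It held 15.3, 10.6 and 1.47 CPM in E, 0, 0.521 and 0 CPM in GHMT, 0.999, 1.32 and 0.654 CPM in AGHMT and 8.32, 1.71 and 15.1 CPM in CM. E varied by about 10-fold, and its lowest library was close to AGHMT. AGHMT was lower than E (-3.20 ± 0.90, adjusted p = 0.0105, edgeR's quasi-likelihood test), a call lost with limma and without E 1 or AGHMT 3. A single read in GHMT gave a ratio of E to GHMT of 43.3, with a 95% counting interval of 7.77 to 1710 (adjusted p = 0.00707).

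Isg15, a ubiquitin-like modifier, is among the most strongly induced genes of an interferon response in textbooks. Here it held 3.35, 2.43 and 0.459 CPM in E, 2.62, 14.6 and 5.50 CPM in GHMT, 2.31, 1.98 and 2.94 CPM in AGHMT and 0.892, 0.403 and 5.33 CPM in CM. The groups overlapped and no comparison passed (GHMT against E 1.93 ± 0.94, adjusted p = 0.0932, edgeR). Usp18, which removes Isg15 from proteins and restrains the receptor, was higher in GHMT (3.63, adjusted p = 0.00156), AGHMT (2.85, 0.00639) and CM (2.08, 0.0293), with 9.18, 24.5 and 2.06 CPM in GHMT and at most 1.14 CPM in E. The AGHMT call was lost with total counts. The CM call was lost with total counts, limma, the replicate block, and without AGHMT 3, CM 1 or any of the E libraries.

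The effector genes held the largest rises. Ifit1 (chromosome 19, 34640871 to 34650009, plus strand) encodes a protein that binds foreign RNA and blocks its translation. It stood at 3.16, 4.33 and 5.04 CPM in E, at 832, 666 and 590 CPM in GHMT, at 124, 116 and 149 CPM in AGHMT and at 18.4, 18.9 and 8.59 CPM in CM. The 4 groups were separate and in the order of Ifih1. The log2 difference from E was 7.38 ± 0.42 in GHMT (adjusted p = 1.49e-08, edgeR's quasi-likelihood test), 4.95 ± 0.37 in AGHMT (2.12e-07) and 1.89 ± 0.33 in CM (0.000334). AGHMT was lower than GHMT by a log2 of -2.43 ± 0.33 (adjusted p = 0.000581), and this call held in every alternative run. Of its 50-base stretches, 7.1% recur in Ifit1bl1 or Ifit1bl2, so that a part of its reads may have been left uncounted.

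The neighbouring Ifit genes did not follow it alike. Ifit2 (chromosome 19, 34550694 to 34576419) held 17.7, 19.3 and 26.1 CPM in E, 155, 164 and 281 CPM in GHMT, 62.5, 61.0 and 60.7 CPM in AGHMT and 30.5, 38.5 and 17.9 CPM in CM. It was higher than E in GHMT (3.25 ± 0.37, adjusted p = 1.2e-05, edgeR) and AGHMT (1.55 ± 0.35, 0.00288), and CM overlapped with E. The AGHMT call against E was lost with total counts and with the GC correction. AGHMT was lower than GHMT (-1.70, adjusted p = 0.00591), except with total counts and without AGHMT 3, where the call was lost. Ifit3, between them on the chromosome, stood at 0, 5.21 and 9.62 CPM in GHMT and 2.57 to 3.46 CPM in E, and passed in AGHMT (2.21, adjusted p = 0.0118) and CM (2.49, 0.0058) but not in GHMT (0.76, 0.357). The AGHMT call was lost with total counts, with limma and without AGHMT 2 or E 2, and the CM call with total counts and limma. Since 51.2% of its 50-base stretches recur in Ifit3b, its counts are uncertain.

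Rsad2 and Cmpk2 lie side by side on chromosome 12 (26442746 to 26456452, minus strand, and 26469204 to 26479837, plus strand). Rsad2 encodes viperin, which makes a nucleotide that stops viral polymerases, and Cmpk2 is a nucleotide kinase that supplies it. Rsad2 held 0.870, 0.338 and 0.611 CPM in E, 125, 31.8 and 8.94 CPM in GHMT, 19.4, 18.0 and 23.1 CPM in AGHMT and 36.6, 46.3 and 23.7 CPM in CM. GHMT spread over more than 10-fold around AGHMT and CM, and all 3 lay above E: 6.42 ± 0.83 (adjusted p = 3.62e-05), 5.01 ± 0.77 (0.000195) and 5.83 ± 0.80 (3.78e-05), by edgeR's quasi-likelihood test.

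Cmpk2 held 0.502, 0.406 and 0.397 CPM in E, 53.7, 30.2 and 26.8 CPM in GHMT, 6.07, 6.61 and 6.54 CPM in AGHMT and 13.6, 13.2 and 8.93 CPM in CM. Here the groups were separate, with CM above AGHMT. Its log2 differences from E were 6.36 ± 0.55 (adjusted p = 8.33e-07), 3.85 ± 0.49 (3.57e-05) and 4.75 ± 0.51 (3.58e-06), and AGHMT was lower than GHMT (-2.51 ± 0.46, adjusted p = 0.00329, edgeR) in every alternative run.

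The Mx GTPases, which trap viral nucleocapsids, were low. C57BL/6 mice carry a non-functional Mx1 allele, and Mx2 is annotated as a polymorphic pseudogene in GENCODE M21. Mx1 held 0.151, 0.135 and 0.153 CPM in E, no read in GHMT, 0.922, 1.16 and 1.31 CPM in AGHMT and 2.38, 2.21 and 1.37 CPM in CM. Both AGHMT (2.89 ± 0.55, adjusted p = 0.00137, edgeR) and CM (3.71 ± 0.57, 0.000161) were above E. In GHMT 0 reads allow up to 0.725 CPM pooled over its libraries, which is above the level of E, so a difference from E was not detectable at this depth. AGHMT was at least 1.59-fold higher than GHMT (adjusted p = 0.0261), a call lost in several alternatives, among them DESeq2 and the omission of GHMT 2 or GHMT 3.

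Mx2 held 0.502, 0.270 and 0.275 CPM in E, 0, 8.34 and 4.12 CPM in GHMT, 3.0, 6.50 and 7.53 CPM in AGHMT and 4.68, 4.43 and 2.23 CPM in CM. It was higher than E in GHMT (3.66 ± 0.83, adjusted p = 0.00245, edgeR), where GHMT 1 had no read, in AGHMT (3.98 ± 0.80, 0.00137) and in CM (3.40 ± 0.78, 0.00266). The GHMT and AGHMT calls were lost with limma. Oasl2, a relative of the synthetases that activate RNase L, rose in all 3 (3.72, 2.35 and 3.17, with adjusted p of 0.000169, 0.00345 and 0.000333). Its AGHMT call was lost with total counts. Oas1a had 0 reads in GHMT and 6, 9 and 14 in E, AGHMT and CM, and 57.6% of its 50-base stretches recur in Oas1g or Oas1b. Bst2 (tetherin, which holds budding virus on the cell) passed in no comparison and ranged from 1.31 to 22.7 CPM within CM.

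**Figure D2:**
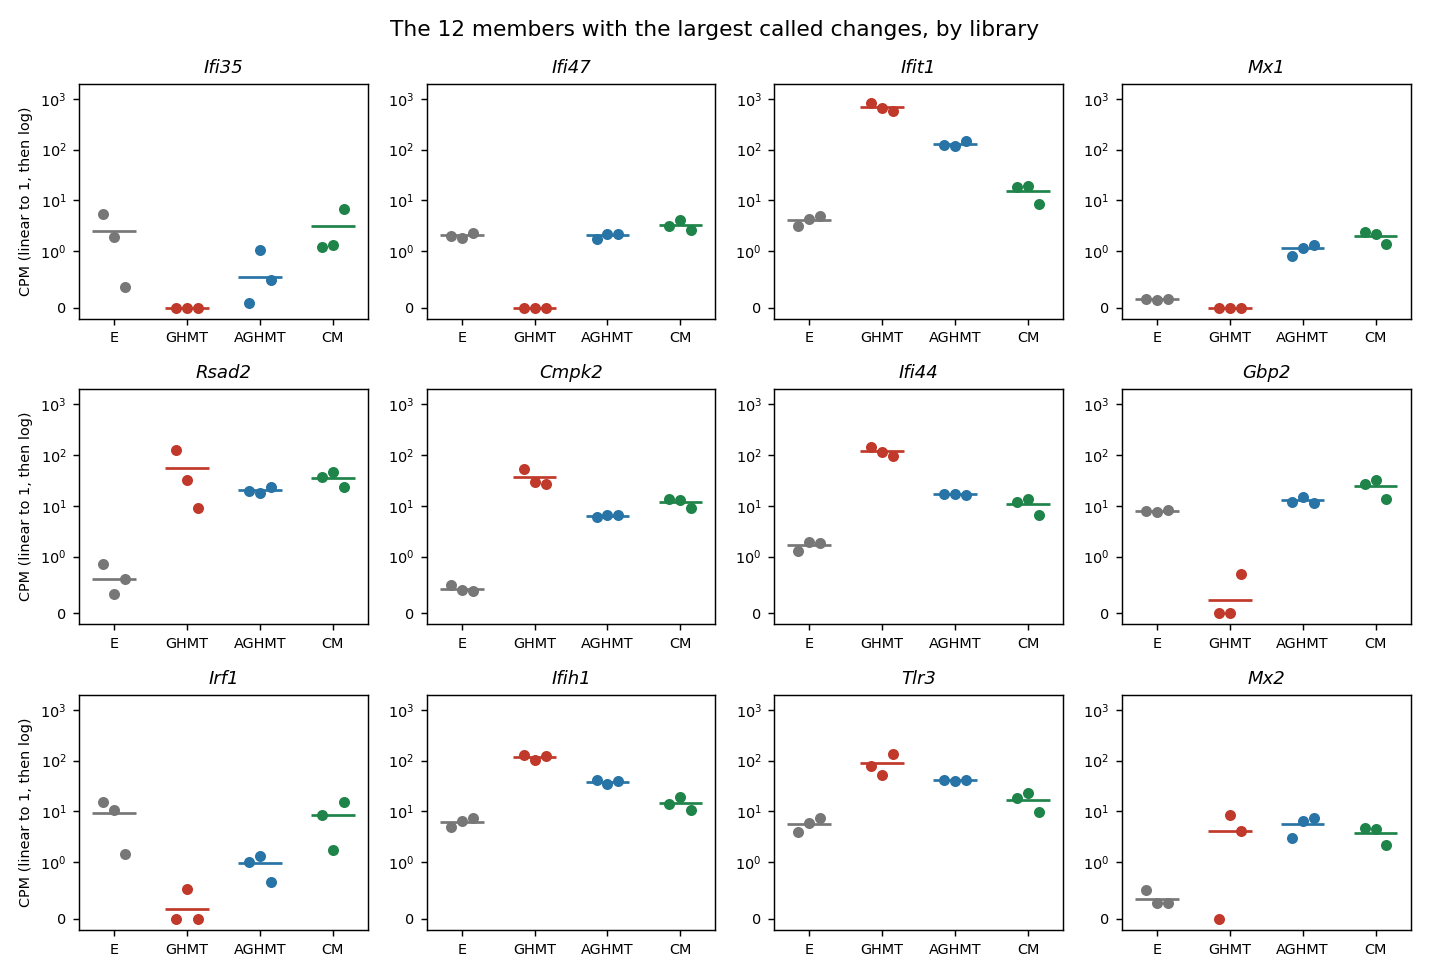
CPM by library (vertical axis, linear up to 1 and logarithmic above) for the 12 genes with the largest called differences; points are libraries in the order 1 to 3 and lines are group means of 3. Ifit1, Ifi44 and Ifih1 separate GHMT, AGHMT and CM from E, while Ifi47 and Ifi35 are at 0 in GHMT.

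Of the 7 other induced genes, 5 were higher in GHMT than in E and 1 was lower, beside 19.8% and 32.9% of all genes. In AGHMT 6 were higher and in CM 6, beside 21.9% and 19.5%. Ifi44 (chromosome 3, 151730922 to 151749960, minus strand), an antiviral protein of the cytoplasm, held 1.29, 1.99 and 1.90 CPM in E, 143, 118 and 94.2 CPM in GHMT, 16.8, 17.1 and 16.5 CPM in AGHMT and 11.9, 14.0 and 6.53 CPM in CM. No 2 groups overlapped. Log2 differences from E were 6.10 ± 0.45 (adjusted p = 1.88e-07, edgeR), 3.28 ± 0.40 (2.09e-05) and 2.66 ± 0.39 (6.33e-05). AGHMT was lower than GHMT (-2.81 ± 0.39, adjusted p = 0.00057), in every alternative run.

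Parp9 and Dtx3l encode partners in a ubiquitin ligase that sits at damaged chromatin and enhances interferon signalling, and their exons overlap by 458 bases on opposite strands. Parp9 held 13.6, 13.5 and 15.1 CPM in E, 51.1, 55.2 and 79.7 CPM in GHMT, 35.6, 43.9 and 46.6 CPM in AGHMT and 40.9, 42.5 and 23.5 CPM in CM. All 9 libraries outside E lay above E, by a log2 of 2.14 (adjusted p = 0.000274, edgeR), 1.58 (0.00251) and 1.34 (0.00552). The GHMT and AGHMT calls were lost with total counts. Dtx3l showed 2.39 (0.00143), 2.12 (0.0033) and 1.55 (0.0168). Its GHMT call was lost with total counts, and its CM call with total counts, on thinning to 1 depth and without CM 2, E 1 or E 2. Whether the counting used strand is not given in the sources used here, so reads of the overlap may be shared between them.

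Parp14, an ADP-ribosyltransferase, was higher than E by 2.60 in AGHMT (adjusted p = 0.00425, edgeR; lost with total counts) and 2.98 in CM (0.0014). In GHMT its libraries ran from 2.62 to 51.5 CPM and overlapped with E. Its call there (1.98, adjusted p = 0.0167, edgeR) was lost with total counts, normalization without mitochondrially encoded genes, limma, the pair alone, the GC correction, and without GHMT 3, AGHMT 3 or E 1. Rtp4, a chaperone of receptor transport, was higher in all 3 (3.81, 2.58 and 2.36, adjusted p 0.000151, 0.00207 and 0.00279), with the AGHMT call lost on thinning to 1 depth. Of its 50-base stretches, 13.6% recur in Gm45338. Xaf1, a promoter of apoptosis, passed in AGHMT (2.17, adjusted p = 0.0157; lost with total counts, limma and without AGHMT 2) and CM (2.61, 0.00559), and in GHMT it ran from 0.687 to 19.7 CPM (1.51, adjusted p = 0.081).

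Ifi35 held 5.29, 1.93 and 0.367 CPM in E, no read in GHMT, 0.0769, 1.05 and 0.491 CPM in AGHMT and 1.19, 1.31 and 6.70 CPM in CM. It was at least 4.35-fold lower in GHMT than in E (adjusted p = 0.0492, edgeR), a call at the threshold that was lost without any of the 3 GHMT libraries, without CM 1 or CM 2, without E 1 or E 2, and with the GC correction. In E and in CM the libraries spread over more than 5-fold.

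The GTPases split in 2 directions. Gbp2 and Ifi47 were lower in GHMT than in E, Gbp3 and Igtp were higher, and Irgm1 did not pass. Gbp2 (chromosome 3, 142620602 to 142638008, plus strand), a guanylate-binding protein that attacks pathogen vacuoles, held 7.96, 7.54 and 8.16 CPM in E, 0, 0 and 0.687 CPM in GHMT, 11.8, 15.3 and 11.5 CPM in AGHMT and 26.5, 32.9 and 13.9 CPM in CM. With 1 read in GHMT, the ratio of E to GHMT was 32.7 (95% counting interval 5.86 to 1290, adjusted p = 0.000529, edgeR's quasi-likelihood test), and that of AGHMT to GHMT was 53.6 (9.58 to 2120, adjusted p = 0.00134). CM was higher than E (1.63, adjusted p = 0.0145, edgeR), a call lost with total counts, limma, the replicate block and without CM 1, CM 2, E 1 or E 2.

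Ifi47 (chromosome 11, 49076587 to 49096974, plus strand), an immunity-related GTPase, held 2.01, 1.86 and 2.32 CPM in E, no read in GHMT, 1.77, 2.20 and 2.18 CPM in AGHMT and 3.20, 4.13 and 2.58 CPM in CM. E and AGHMT overlapped. It was at least 2.84-fold lower in GHMT than in E (adjusted p = 0.00309, edgeR) and at least 2.87-fold higher in AGHMT than in GHMT (0.0123). Both calls held in every alternative that kept the gene.

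Gbp3, the close neighbour of Gbp2, rose in GHMT (2.97, adjusted p = 0.00253, edgeR), AGHMT (3.01, 0.00255) and CM (3.38, 0.000884), with GHMT libraries from 1.31 to 34.4 CPM. Its GHMT call was lost with total counts and limma. Igtp also rose in all 3 (3.51, 2.98 and 3.62, adjusted p 0.000736, 0.00215 and 0.000416), with the AGHMT call lost on thinning to 1 depth. Irgm1, which regulates the other immunity-related GTPases, held 28.4, 32.5 and 41.6 CPM in E, 3.93, 19.3 and 79.0 CPM in GHMT, 37.7, 44.4 and 30.8 CPM in AGHMT and 30.8, 33.7 and 20.1 CPM in CM. Its groups overlapped and it passed in no comparison. The chemokine Cxcl10, which draws T cells, was not tested: it had 13 reads in GHMT, 12 of them in GHMT 2, and 27, 15 and 6 reads in E, AGHMT and CM. Its exons overlap those of Art3 on the other strand by 133 bases.

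The direct test of AGHMT against GHMT called 3 genes of the set higher (Mx1, Gbp2 and Ifi47), 6 lower (Ifih1, Dhx58, Ifit1, Ifit2, Cmpk2 and Ifi44) and 24 neither. Among all genes 17.8% were called, 13.2% higher and 4.58% lower, so that 74.3% of calls were higher, against 95.4% with total counts and 63.7% with DESeq2's size factors. Groups were apart for 6 genes above and 8 below GHMT, beside 37.4% and 8.47% of all genes. The median over the set was -0.26, and -0.40 with 2 genes without reads in GHMT at their bounds and Ifi35 left out; it was 0.32 with total counts and 0.40 with normalization without mitochondrially encoded genes. A direction of the whole set in this comparison therefore depends on the scaling, while the calls of Ifit1, Cmpk2, Ifi44, Gbp2 and Ifi47 held in all alternatives that gave them a value. Without GHMT 3, 6 genes were higher, and without AGHMT 3, 3 were lower.

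Against adult cardiomyocytes, GHMT had 8 genes higher and 7 lower, beside 58.6% of all genes called, 23.8% higher and 34.7% lower. Groups were apart for 9 above and 7 below CM, beside 18.4% and 40.2% of all genes. Of all calls 40.7% were higher, and 30.5% under DESeq2's size factors. Ifit1 was higher by 5.49 ± 0.38 (adjusted p = 8.71e-08, edgeR's quasi-likelihood test), Ifi44 by 3.44 (7.03e-06), Ifih1 by 3.0 (7.61e-06), Ifit2 by 2.78 (2.31e-05) and Eif2ak2 by 2.68 (2.06e-05). Gbp2, with a ratio of CM to GHMT of 108 (95% counting interval 19.4 to 4280), and Ifi47, at least 4.67-fold, were lower in GHMT. In AGHMT against CM, 5 were higher (Ifih1, Tlr3, Eif2ak2, Ifit1 and Ifit2) and 2 lower (Zbp1 and Irf1), beside 48.1% of all genes called, 23.7% higher and 24.4% lower. Groups were apart for 8 above and 12 below CM, beside 36.7% and 33.9%. With DESeq2's size factors these numbers were 2 and 9, and the share of all calls that were higher was 28.7% against 49.4%. Ifit1 (3.07, adjusted p = 1.31e-05) and Eif2ak2 (2.46, 8.1e-05) kept their calls throughout. The call of Tlr3 was lost without any of the AGHMT libraries and without CM 1 or CM 3, that of Ifit2 without AGHMT 1, CM 1 or CM 3, and those of Zbp1 and Irf1 without AGHMT 1 or AGHMT 3.

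Set in order of mean level per kilobase of exon, a scale on which genes can be compared, E was led by Eif2ak2 (16 ± 3.75 CPM per kilobase, SD, n = 3), followed by Irgm1 (5.88 ± 1.16) and Ifit2 (5.35 ± 1.14), and Irgm1 and Ifit2 lay within their spread. GHMT was led by Ifit1 (262 ± 46.7), then Ifit2 (50.9 ± 18.0) and Eif2ak2 (41.8 ± 9.17), which lay within their spread. AGHMT had Ifit1 (48.7 ± 6.49), Eif2ak2 (35.9 ± 1.97) and Ifit2 (15.6 ± 0.238), each apart from the next. In CM, Ifit3 (10.2 ± 3.93), Bst2 (9.98 ± 13.1), Gbp2 (9.71 ± 3.84) and Igtp (8.39 ± 0.943) did not differ beyond their spread. The group with the highest mean CPM was GHMT for 17 of the 35 genes, CM for 14, AGHMT for 3 (Ddx58, Mx2 and Irgm1) and E for Irf1. This order of means depends on the scaling, and the same count was not made over all genes. Among the 17, Dhx58 and Cxcl10 had all or most of their GHMT reads in GHMT 2, and Isg15 overlapped between groups.

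**Figure D3:**
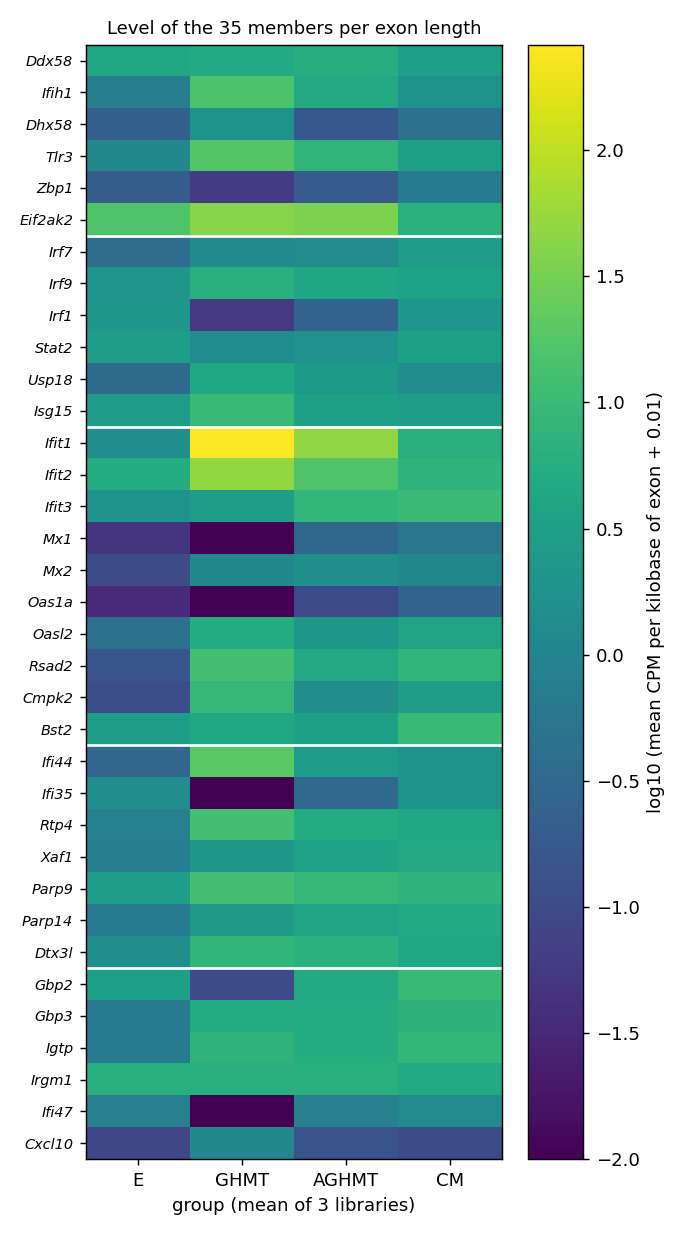
Mean level of the 35 genes per kilobase of exon (colour, log10 of CPM per kilobase plus 0.01) in the 4 groups, n = 3 libraries each, with white lines between roles. Ifit1 in GHMT is the brightest cell at 262 CPM per kilobase, and Mx1, Oas1a, Ifi35 and Ifi47 in GHMT are at the dark end with no read.

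The libraries differ in base composition, and the set's changes moved with it. GC content of the longest transcript ran from 40.0% (Tlr3) to 55.4% (Irf7) over the 35 genes, with a median of 47.4% against 48.8% over all genes tested that have a GC value. Across the 33 genes tested, Spearman's rho between GC content and the log2 difference was -0.41 in GHMT against E and -0.479 in AGHMT against E, close to -0.442 and -0.491 across 14982 genes, and -0.0414 in CM against E. These are descriptions across genes measured in the same libraries, and genes are not independent replicates. After a correction of each library for GC content rho was -0.104 and -0.176, and 19 genes of the set were called higher in GHMT against E, beside 14.3% of all genes higher and 35.7% lower. These were not the 19 called without the correction: Eif2ak2 and Parp14 were lost, and Irf7 and Isg15 were gained.

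**Figure D4:**
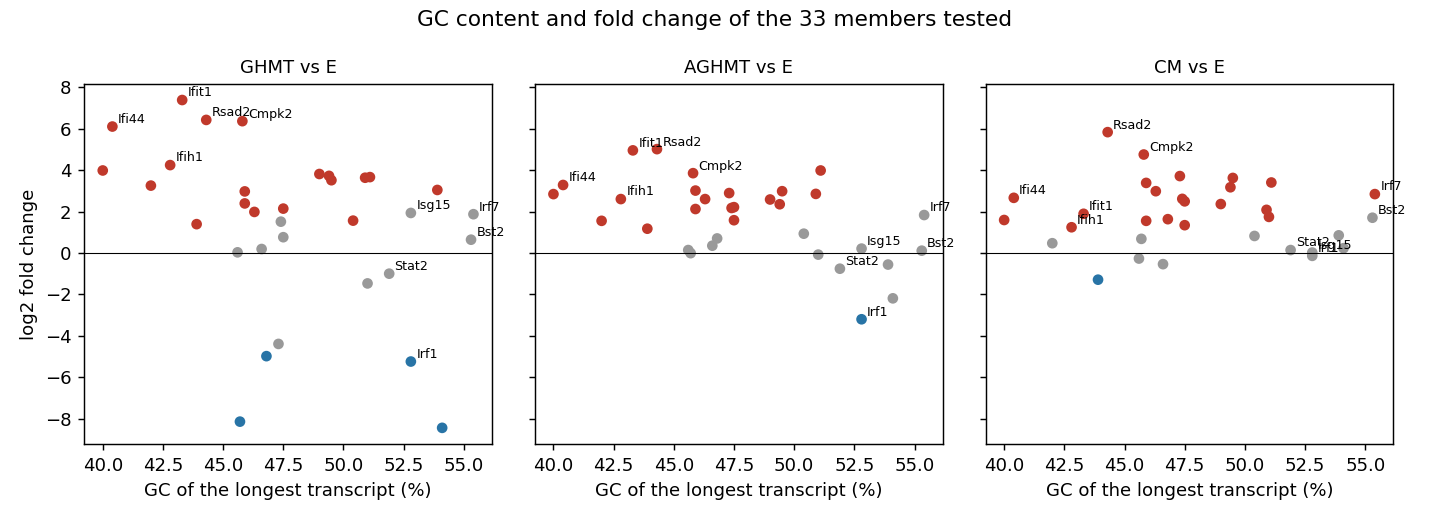
Log2 fold change (vertical axis) against GC content of the longest transcript in percent (horizontal axis) for the 33 tested genes in GHMT, AGHMT and CM against E; red is higher, blue lower, grey not called. Ifit1, Rsad2, Cmpk2 and Ifi44, all below the set's median GC, lie at the top in GHMT. In AGHMT Rsad2 and Ifit1 lie at the top, followed by Mx2 (51.1% GC, 3.98). Tlr3, lowest in GC at 40.0%, lies at 3.98 in GHMT and 2.84 in AGHMT. In CM no slope is visible.

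Genes with and without the promoter match were both among those that rose. In GHMT against E, 6 of 13 tested genes with a match were higher and 7 of 12 without one, beside 19.8% of all genes. In CM against E the counts were 7 of 13 and 7 of 12, beside 19.5%. Ifit1 and Ifit3, with the 2 matches each printed above, differed in GHMT as given, and Gbp2, with 1 match, was the gene with a single GHMT read.

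The genes upstream were examined from separate lists. Of 19 interferon genes, 13 had no read in any library and the other 6 had 3 reads in E, 0 in GHMT, 3 in AGHMT and 1 in CM, all under the filter. Of 6 receptor genes, 1 was higher in GHMT against E, Il10rb (2.12, adjusted p = 0.000209, edgeR), and none was lower. The type I receptor genes Ifnar1 (26.2, 75.6 and 26.1 CPM in GHMT, 46.3 to 50.2 CPM in E) and Ifnar2 did not pass there. A count of 1 of 6 is close to the 19.8% of all genes called higher. In CM against E, Ifnlr1 (3.45), Il10rb (2.91) and Ifngr2 (1.93) were higher and Ifnar1 (-1.24, adjusted p = 0.0215) was lower.

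Of 12 receptor signalling genes tested, 3 were lower in GHMT against E. These were Stat3 (-2.37, adjusted p = 0.000528, edgeR), Ptpn11 (-1.70, 0.00236) and Jak1 (-1.09, 0.036), beside 32.9% of all genes lower. In the sensing pathway 3 of 22 were higher and 5 lower, among them Tmem173, which encodes the adaptor STING (-4.09, adjusted p = 0.000741), and Rela (-4.04, 0.0179). With 19.8% of all genes higher and 32.9% lower, neither count stands above the background.

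A list of 53 further induced genes that could be tested had 21 higher and 12 lower in GHMT against E, beside 19.8% and 32.9% of all genes. In AGHMT 24 were higher and 11 lower, beside 21.9% and 24.6%, and in CM 22 and 4, beside 19.5% and 22.5%. The counts of lower genes did not stand above these shares. Trim30a, an interferon-induced ubiquitin ligase, held 1.99, 3.11 and 3.55 CPM in E, 189, 384 and 245 CPM in GHMT, 85.9, 87.3 and 103 CPM in AGHMT and 26.2, 36.9 and 13.4 CPM in CM. Its order of groups was that of Ifit1, and AGHMT was lower than GHMT (-1.57, adjusted p = 0.0146, edgeR). Ddx60, an RNA helicase of the antiviral response, did likewise (7.54, 5.94 and 3.89 against E, and -1.60 for AGHMT against GHMT, adjusted p = 0.0326). Mov10, an RNA helicase, was without a read in GHMT, at least 6.48-fold lower than in E (adjusted p = 0.0139).

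Of 19 antigen presentation genes, 3 were higher and 2 lower in GHMT against E, 4 and 0 in AGHMT, and 13 and 0 in CM, beside 19.8%, 21.9% and 19.5% of all genes higher. H2-Aa (8.27, adjusted p = 5.2e-06), Cd74 (6.95, 0.000602) and H2-Ab1 (6.75, 5.33e-05, edgeR), parts of the class II pathway of professional antigen-presenting cells, led in CM. B2m, the light chain of class I molecules, was higher in GHMT (1.48, adjusted p = 0.00078), at 901, 1230 and 968 CPM against 341, 422 and 345 CPM in E.

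Markers of other cell types differed between the groups. The summed level of 15 macrophage markers was 19.4 to 46.6 CPM in E, 2.62 to 11.7 CPM in GHMT, where 9 of the 15 had no read (among them Adgre1, Cd68, Itgam and C1qa), 73.1 to 142 CPM in AGHMT and 182 to 263 CPM in CM. In AGHMT the sum was carried by Mrc1, at 86.2, 45.0 and 35.4 CPM against 2.78 to 4.28 CPM in E. Lyz2 overlapped, at 26.6, 26.7 and 17.5 CPM against 28.7, 23.9 and 8.59 CPM, and Cd68, Csf1r, C1qb, Tyrobp and Cd14 had lower means than in E. The test called 4 of the 15 higher in AGHMT (Adgre1, Ptprc, Mrc1 and Fcgr1) and 13 in CM, beside 21.9% and 19.5% of all genes. None was lower in either. In GHMT 0 of the 15 were called higher than in E and 5 lower, beside 19.8% and 32.9% of all genes. The count of lower markers was thus close to the share of all genes. The rises of Ifit1, Ifi44 and Ifih1 in GHMT stood beside a macrophage sum below that of E, while in AGHMT and CM the set and the macrophage sum were both above E. The part of such cells was not tested in any group. No read in GHMT allows up to 0.725 CPM pooled, above the E means of Fcgr1 (0.187), Aif1 (0.256), C1qa (0.437) and Tyrobp (0.488). A drop of these genes could not be seen, while the E means of Adgre1, Cd68, Itgam, C1qb and Cd14 lay above that level. The sum of 11 endothelial markers was 33.8 to 35.7 CPM in E, 143 to 193 CPM in GHMT, 192 to 214 CPM in AGHMT and 658 to 860 CPM in CM, with Cldn5 at 0 in E, GHMT and AGHMT. Flt1 carried most of the GHMT sum, at 190, 134 and 135 CPM against 23.3 to 27.0 CPM in E. Of the 10 tested, GHMT had 2 above E and 1 below by the test, beside 19.8% and 32.9% of all genes. AGHMT had 9 above, beside 21.9%. All 10 lymphocyte markers were without a read in GHMT and summed to at most 1.63 CPM elsewhere. Of the plasmacytoid dendritic cell list, 5 of 6 genes, among them Siglech, had no read in GHMT. These genes had few reads in every group (Siglech 0 in E, 3 in AGHMT and 6 in CM), so their zeros are not particular to GHMT. Tcf4, the remaining gene, stood at 132, 201 and 162 CPM in GHMT and at 146, 177 and 217 CPM in E. The 7 mast cell markers summed to 0.485 to 1.25 CPM in E, 65.5 to 162 CPM in GHMT, 311 to 340 CPM in AGHMT and 7.21 to 10.4 CPM in CM. Mcpt4, a mast cell protease, was the whole of the GHMT sum (65.5, 103 and 162 CPM, against at most 0.153 CPM in E) and stood at 339, 317 and 309 CPM in AGHMT, while the other 6, among them Kit and Cpa3, had no read in GHMT. The part of endothelial and mast cells in the set's changes was not tested. The 8 cardiomyocyte markers summed to 8.59 to 18.3 CPM in E, 728 to 1260 CPM in GHMT, 4110 to 4560 CPM in AGHMT and 30100 to 57800 CPM in CM. Among GHMT, AGHMT and CM this order was opposite to that of Ifit1, and the same as that of the means of Gbp2 and Parp14. The set had no single order, with the highest mean in GHMT for 17 of the 35 genes and in CM for 14. The 10 fibroblast markers summed to 11400 to 13700 CPM in E, 4850 to 7020 CPM in GHMT, 8430 to 9480 CPM in AGHMT and 1010 to 1230 CPM in CM.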

How the data were processed

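RNA of 12 mouse libraries, 3 per group by their titles, had been sequenced. Per the labels, TRIzol was used for extraction and a TruSeq Stranded kit for the libraries. Per the submitters' processing notes, Bowtie2 2.0.6, HTSeq and DESeq were used with build mm10. Neither the strand setting of the counting nor the annotation release is given in the sources used here. Each library's deposited file holds raw read counts by Ensembl gene, and these were tested. A deposited table of normalized signal, which the authors scaled per library, served as an alternative: its steps gave whole reads for 100% of values (tolerance 0.001), with the totals of the count files in 12 libraries.

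Identifiers were matched to GENCODE M21 (GRCm38), 42548 of 43629. With edgeR 4.0.16 in R 4.3.3, filterByExpr (count minimum 10, total minimum 15) kept 15059 genes. TMM-scaled libraries entered 1 robust quasi-likelihood model, in which 6 pairs of groups were tested with Benjamini-Hochberg adjustment over all genes at 0.05. Log2 differences are those fitted by this model. A prior count of 2 applies to the log2 CPM values used to correlate same-numbered libraries and to fit the GC correction, not to these differences. Bounds for genes without reads use 3 reads pooled over a group and, like the 95% counting intervals, cover counting error only. Tested on simulated data for GHMT against E (14867 genes), 18% of 2-fold, 90% of 4-fold and 98% of 8-fold changes were recovered, with 5 false calls. The simulation gave every group the same mean profile and every gene the same spread. It changed only genes with more than a few expected reads in the smallest library. Recovery and false calls for genes with few reads, or between groups as unlike as these, were therefore not measured. Replicates differed beyond counting error (chi-square per degree of freedom at least 14).

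Alternatives were DESeq2's size factors, total counts, normalization leaving out mitochondrially encoded genes, and a filter of above 1 CPM in at least 3 libraries or none. Others were DESeq2 1.42.0, limma 3.58.1 on the log2 of deposited values + 1, a fit of the compared pair alone and a replicate block. Thinning to 612458 reads, a GC correction and each library left out were also run. A further one took differences of mean log2 CPM with a prior count of 0.5, in place of fitted differences. Chosen after seeing the data were reads recovered from the normalized table and the omission of GHMT 1 and CM 3.

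Values in every library are given for the 12 genes with the largest called difference against E or between AGHMT and GHMT, for the highest gene of each role per kilobase, and for Irf7, Irf9 and Stat2. From other pathway lists the rule names up to 4 called genes with the largest difference and the receptors, and the text gives some of these. A result on 1 further gene is not reported here. Ifit2 and other values by library were added after they were seen. The genes of the set and all lists were chosen with earlier results of these data known.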

Additional observations from a re-analysis of the deposited data

How the results depend on the processing

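Counts of interferon response genes that moved by over 1.5 times were as follows, with the cause not tested. With total counts, 12 were higher in GHMT and 12 in AGHMT against E, 9 in CM against E, and 3 were lower in AGHMT against GHMT. Thinned to 1 depth, 2 were lower in GHMT against E, 1 was higher in AGHMT against GHMT and 4 were lower in GHMT against CM. In AGHMT against E, 2 were lower with no filter and 0 with limma, where the main count was 1. DESeq2 called 10 lower in AGHMT against GHMT. In GHMT against CM, limma called 11 lower and the fit of only the 2 groups 1. AGHMT against CM moved most: higher and lower numbered 2 and 9 with DESeq2's size factors, 3 and 14 with DESeq2, 2 and 7 with limma, 8 and 9 with only the 2 groups, and 2 and 5 with the GC correction, and without GHMT 1 and CM 3 together 4 were lower. That joint omission gave 23 higher in GHMT against E.

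With each library left out in turn, higher and lower ranged from 15 to 21 and 3 to 5 in GHMT against E, 18 to 22 and 0 to 2 in AGHMT against E, 2 to 6 and 3 to 9 in AGHMT against GHMT, 15 to 21 and 1 to 1 in CM against E, 6 to 11 and 5 to 9 in GHMT against CM, and 3 to 6 and 0 to 3 in AGHMT against CM. The 0 in AGHMT against E came without AGHMT 3 or E 1, and the 0 lower in AGHMT against CM without AGHMT 1 or AGHMT 3. Dhx58 reversed in GHMT against E with limma (-0.50) and without GHMT 2 (-6.82), and in AGHMT against GHMT without GHMT 2 (6.27). Its differences of mean log2 CPM with a prior count of 0.5, another statistic than the fitted ones, also had the opposite sign (-1.48 and 1.14). All GHMT reads of Dhx58 lie in GHMT 2. With each library left out its differences ran from -6.82 to 3.61 and from -4.16 to 6.27.

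Replicate numbers do not pair the libraries: deviations of same-numbered libraries correlated at -0.719 to 0.130 over 18 pairs, and 2 correlated best with their own number. With the replicate block, higher and lower numbered 18 and 3 in GHMT against E, 20 and 1 in AGHMT against E, 2 and 5 in AGHMT against GHMT, 18 and 1 in CM against E, 7 and 5 in GHMT against CM, and 4 and 2 in AGHMT against CM. Of the genes called, 14 of 23 in GHMT against E, 9 of 21 in AGHMT against E, 5 of 9 in AGHMT against GHMT and 9 of 22 in CM against E kept their call in every alternative that gave them a value. Depth limits GHMT, where 3 reads amount to 3.93 CPM in GHMT 1, so low genes such as Mx1 and Zbp1 could not be ranked there.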
